A study of Mus musculus with 10 samples.

Results

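The Bcl2 family sets the threshold at which a cell enters the mitochondrial pathway of apoptosis. In all 10 genes of it were followed here across the early steps of T cell development, and were taken from the count tables by symbol: the anti-apoptotic *Bcl2*, *Bcl2l1*, *Mcl1*, *Bcl2a1b* and *Bcl2a1d*, the pore-forming effectors *Bax* and *Bak1*, and the BH3-only activators or sensitizers *Bcl2l11*, *Bbc3* and *Pmaip1*. All 10 were among the 24062 genes listed, and all 10 were among the 12221 genes that reached 1 CPM (reads of the gene per 1000000 reads counted on genes) in at least 2 of the 10 libraries and were tested.

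The anti-apoptotic proteins hold the effectors and the BH3-only proteins in check by binding them, and when BH3-only proteins exceed that capacity BAX and BAK form pores in the outer mitochondrial membrane and release cytochrome c. The anti-apoptotic proteins are not interchangeable in vivo: MCL-1 is short-lived and is needed by hematopoietic stem and progenitor cells, BCL-XL (encoded by *Bcl2l1*) is best known for survival of erythroid cells, platelets and CD4+CD8+ thymocytes, A1 (the *Bcl2a1* genes) is abundant in granulocytes and activated lymphocytes, and BCL-2 is the classical mediator of survival under interleukin 7 (IL-7) in early thymocytes and mature T cells. BIM (*Bcl2l11*), PUMA (*Bbc3*) and NOXA (*Pmaip1*) are the BH3-only proteins most often linked to cytokine withdrawal and DNA damage.

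RNA was measured in cells grown from Lin-SCA1+KIT+ (LSK) bone marrow progenitors of wild-type C57BL/6J mice, whose age was not given in the sources used here. Every culture received the cytokine mixture 4GF (SCF, FLT-3 ligand, IL-6 and IL-11). On a high density of the immobilized Notch ligand Delta1ext-IgG, DN1 cells (KIT++CD44+CD25-) were sorted from cultures without IL-7, and DN2a (KIT++CD44+CD25+) and DN2b (KIT+CD44loCD25+) cells from cultures that also received IL-7 from day 14, with 2 libraries per stage carrying dates of 2012 and 2013. The no Notch control (IgG) was LSK progeny on immobilized human IgG1 at day 14, unsorted, with 4 libraries whose names end in D1, D2, R1 and R2, letters that the sources used here leave unexplained. Stage, sort and IL-7 therefore changed together between DN1 and DN2, so these cannot be told apart. Ligand, sort and cell composition changed together between IgG and the DN stages. Between IgG and DN2 the IL-7 and the time in culture differed as well, and these cannot be told apart either. The study's methods state that replicates came from independent LSK isolates and that the DN stages were sorted from each isolate, while the labels do not say which libraries share one.

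The libraries held between 12354635 and 35367925 reads on genes. The sort was visible in the RNA: *Il2ra*, which encodes CD25, was at 18.9 and 23.2 CPM in DN1 and at 1170 to 2175 CPM in the 4 DN2 libraries, and *Cd44* was at 10.9 and 13.5 CPM in DN2b against 116 and 159 CPM in DN1. The 8 T lineage markers summed to 1.96 to 8.76 CPM in IgG, where *Cd3e* was at 0. The same sum was 329 and 457 CPM in DN1, 1451 and 1893 CPM in DN2a, and 2594 and 3860 CPM in DN2b. The IgG libraries carried other cells: 7 neutrophil markers summed to 19027 to 67783 CPM and 6 macrophage markers to 7627 to 16445 CPM. Neutrophil markers summed to 2380 CPM in the DN1 library of 2012 and to 63 CPM in that of 2013, and this library also held 58.7 CPM of 3 erythroid markers and 1402 CPM of 5 mast cell and basophil markers, against 0.598 and 444 CPM in 2013. The DN2 libraries held 0.934 to 5.05 CPM of the neutrophil markers and 11.8 to 43.2 CPM of the macrophage markers, with *Csf1r*, *Msr1* and *Mmp12* at 3 counts or fewer in each. The macrophage marker *Emr1* went the other way among the DN stages. Its means were 1.64 CPM in DN1, 7.73 CPM in DN2a and 23.5 CPM in DN2b (7.07 and 39.9 CPM), against 522 CPM in IgG. The mast cell and basophil markers summed to 258 to 579 CPM in DN2 against 39.8 to 201 CPM in IgG. Of these *Cpa3* had means of 471 CPM in DN2a and 355 CPM in DN2b, while *Prss34* was at 0 in DN2, and *Ms4a2* and *Fcer1a* were at 3 counts or fewer in DN2b.

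*Bcl2* was the member with the steepest gain along the stages. It was at 7.89, 7.98, 9.51 and 12.9 CPM in the 4 IgG libraries (D1, D2, R1 and R2), at 12.9 and 7.22 CPM in DN1 (2012 and 2013), at 71.1 and 71.9 CPM in DN2a and at 110 and 132 CPM in DN2b. The DN1 libraries lay within the range of IgG or just below it, all 4 DN2 libraries were above every IgG and DN1 library, and both DN2b libraries were above both DN2a libraries. The order held in each year taken alone. CPM are scaled throughout by edgeR's TMM factors, and with library size alone *Bcl2* ran from 6.83 to 15.4 CPM in IgG and DN1 and from 69.6 to 134 CPM in DN2.

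In the fit over all libraries *Bcl2* was 7.45-fold higher in DN2a than in IgG (log2FC 2.90 ± 0.28 SE, adjusted p = 1.72e-04) and 12.6-fold higher in DN2b than in IgG (log2FC 3.66 ± 0.29, adjusted p = 4.64e-05). Both of these comparisons use the same IgG libraries. Between DN1 and IgG the log2FC was 0.071 ± 0.29 (adjusted p = 0.876), and its sign turned when the DN1 library of 2012, IgG D1 or IgG D2 was left out (-0.41 without the DN1 library of 2012). In these sorted and unsorted populations more cells with the transcript and more transcript per cell cannot be told apart.

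From DN1 to DN2a *Bcl2* rose by a log2FC of 2.83 ± 0.36 (adjusted p = 0.0204). This call depended on the model: the adjusted p was 0.0576 with the year as a replicate block among the DN libraries, 0.0506 with library size scaling and 0.0626 with a fit of those stages alone, in a range over the alternatives of 9.96e-11 to 0.15. Without the DN1 library of 2012 it was 0.0605, and without the DN2a library of 2012 or 2013 it was 0.15 or 0.148, with a log2FC of 2.47 to 3.31 over all libraries left out in turn. The step from DN2a to DN2b was a log2FC of 0.76 ± 0.34 that did not pass the correction (unadjusted p = 0.0494, adjusted p = 1). The libraries of these 2 stages did not overlap for *Bcl2*. The same was so for 3 of the 10 members in all and for 14 of 40 further apoptosis genes tested.

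The promoter of *Bcl2* is shown because it differs in composition from those of the *Bcl2a1* genes described below. *Bcl2* lies at chr1:106538178-106714274 on the minus strand (mm10), and 558 of the 9157 bases of its annotated exons overlap the antisense gene *D630008O14Rik*, whose reads could be told apart only by strand. The sequence is the RefSeq window from 250 bases before to 50 bases after a start, chr1:106714241-106714540 (GRCm38.p6, minus strand), 5′ to 3′.

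Bcl2 promoter: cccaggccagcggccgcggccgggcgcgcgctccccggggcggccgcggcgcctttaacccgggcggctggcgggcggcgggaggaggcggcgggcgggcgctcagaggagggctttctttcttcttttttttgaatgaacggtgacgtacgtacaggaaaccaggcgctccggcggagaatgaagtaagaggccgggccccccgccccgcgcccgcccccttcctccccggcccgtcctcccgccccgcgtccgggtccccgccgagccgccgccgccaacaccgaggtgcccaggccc

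Its GC content is 76% and its ratio of observed to expected CpG is 1.02, at the percentile 95 of 32851 promoter windows, whose median ratio is 0.38. No capitals appear in it because none of the 4 motifs searched was found: the PU.1 core GAGGAAGT, the RBPJ site TGGGAA, the STAT site TTCNNNGAA (each on both strands) and the NF-kappaB site by its standard consensus. The absence says only that these letters are not in this window.

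*Bcl2l1*, encoding BCL-XL, followed another course. It stood at 94.4, 47.1, 84.1 and 40.3 CPM in IgG (D1, D2, R1 and R2), at 11.6 and 13.7 CPM in DN1, at 36 and 31.6 CPM in DN2a and at 29.7 and 28.8 CPM in DN2b. DN1 had the lowest libraries and IgG the highest, and the DN2 libraries lay between them without overlapping either. *Bcl2l1* was 5.25-fold lower in DN1 than in IgG (log2FC -2.39 ± 0.39, adjusted p = 0.00272) and 2.27-fold lower in DN2b than in IgG (log2FC -1.18 ± 0.36, adjusted p = 0.0273). The DN2b call was lost without IgG R1 (adjusted p = 0.0633) or without the DN2b library of 2012 (0.126) or 2013 (0.12), and with only IgG and DN2b in the fit (0.0513), in a range over the alternatives of 0.00623 to 0.126. DN2a over IgG was just outside the threshold, at -0.97 ± 0.36 (adjusted p = 0.0511, range over the alternatives 0.0194 to 0.217), and it passed with DESeq2 (0.0211), with IgG D1 and D2 alone (0.0481), without IgG D2 (0.0307) and without IgG R2 (0.0194).

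Within the DN stages no comparison of *Bcl2l1* passed the correction. The log2FC was 1.42 ± 0.41 for DN2a over DN1 (unadjusted p = 0.00659, adjusted p = 0.239), 1.21 ± 0.41 for DN2b over DN1 (unadjusted p = 0.0151, adjusted p = 0.206) and -0.21 ± 0.40 for DN2b over DN2a (adjusted p = 1). Both DN2 stages were above DN1 in both libraries, by 2.67-fold and 2.31-fold. The gene lies at chr2:152780668-152831728 on the minus strand and no exon base is shared with another annotated gene.

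*Mcl1* had the highest level per length of the anti-apoptotic members in every library. It was at 599, 466, 651 and 458 CPM in IgG (D1, D2, R1 and R2), at 173 and 188 CPM in DN1, at 143 and 153 CPM in DN2a and at 146 and 179 CPM in DN2b. Every DN library was below every IgG library, while the DN stages differed little among themselves. *Mcl1* was 3.01-fold lower in DN1 than in IgG (log2FC -1.59 ± 0.24, adjusted p = 0.00197), 3.67-fold lower in DN2a (-1.88 ± 0.25, adjusted p = 6.10e-04) and 3.35-fold lower in DN2b (-1.74 ± 0.24, adjusted p = 8.28e-04). These 3 calls held under every alternative run, and the adjusted p reached at most 0.0168, 0.0144 and 0.0155. Among the DN stages the log2FC ran from -0.29 ± 0.26 (DN2a over DN1, adjusted p = 0.739) to 0.13 ± 0.26 (DN2b over DN2a, adjusted p = 1). The gene is at chr3:95658788-95663176 on the plus strand.

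*Bcl2a1b* was found mainly in the IgG cultures. It had 765, 178, 636 and 206 counts in IgG D1, D2, R1 and R2 (42.8, 8.21, 18.7 and 6.28 CPM), 7 and 0 counts in DN1 (2012 and 2013), 0 and 1 count in DN2a and 0 and 0 counts in DN2b. All IgG libraries were above all DN libraries, and of the DN libraries the DN1 library of 2012 had the highest count. A count of 0 allows up to 3 counts, which was 0.2 and 0.239 CPM in the DN2b libraries. On that floor *Bcl2a1b* was at least 86.6-fold lower in DN2b than in IgG (adjusted p = 0.00381) and at least 115-fold lower in DN2a (adjusted p = 0.00376). Both bounds rest in part on IgG D1, without which they were 50.4-fold and 67-fold. In DN1, where the library of 2012 held 7 counts, the fitted log2FC was -7.03 ± 1.44 (adjusted p = 0.00863), and it was -6.15 without the library of 2013. Without the library of 2012 DN1 stood at 0 counts, where the floor gives at least a 127-fold lower level.

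*Bcl2a1d* gave the same order of IgG above the DN stages at a level near the floor. Its counts were 12, 31, 39 and 20 in IgG (D1, D2, R1 and R2), 5 and 2 in DN1, 2 and 0 in DN2a, while DN2b had 0 in both libraries. Against IgG it was at least 5.84-fold lower in DN2a (adjusted p = 0.0164) and at least 4.39-fold lower in DN2b (adjusted p = 0.00895), and its fitted log2FC in DN1 was -2.69 ± 0.98 (adjusted p = 0.0677), which passed with only IgG and DN1 in the fit (adjusted p = 0.0466, range over the alternatives 0.0466 to 0.216). The DN2a call was lost without the DN2a library of 2013 (adjusted p = 0.0838, range over the alternatives 0.0118 to 0.0838) and the DN2b call without the DN2b library of 2012 (0.0512, range 0.00272 to 0.0512). The further copies *Bcl2a1a* (4, 14, 30 and 5 counts in IgG) and *Bcl2a1c* (8, 2, 15 and 3 counts) had 0 counts in all 6 DN libraries and were below the filter. *Bcl2a1b* and *Bcl2a1d* passed the filter only through IgG, so that a gene kept in this way had to be higher there. *Bcl2a1d*, with 2 IgG libraries above 1 CPM, was not tested without IgG D2, without IgG R1 or with either pair of IgG libraries as the control, and its ranges leave those settings out.

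The copies *Bcl2a1a*, *Bcl2a1b* and *Bcl2a1d* are so alike that reads of 36 bases often cannot be assigned: 23.3, 32.1 and 13.4% of their 36-base windows are found in no other locus, against 77.3% for *Bcl2a1c*, which lies apart on the same chromosome. *Bcl2a1b* (chr9:89199209-89207827, plus strand) and *Bcl2a1d* (chr9:88723285-88731914, minus strand) have coding sequences of 519 bases that differ at 6. The first pair of stretches below, coding positions 1 to 36, can be told apart by the base in capitals, and the third stretch, coding positions 5 to 40, is found in both genes. Positions are counted from the A of the start codon.

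Bcl2a1b, positions 1 to 36: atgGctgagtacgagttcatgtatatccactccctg

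Bcl2a1d, positions 1 to 36: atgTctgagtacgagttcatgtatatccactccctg

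Both genes, positions 5 to 40: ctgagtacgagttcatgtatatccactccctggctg

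Of 782 such windows over the *Bcl2a1b* transcript 251 (32.1%) were found in no other locus of the annotation, and of 828 over *Bcl2a1d* 111 (13.4%), against 99.2 to 100% for each of the other 8 members. Between 16.4 and 30.1% of the reads of a library were set aside by the authors' counting as not uniquely aligned. The counts of *Bcl2a1b* and *Bcl2a1d* therefore rest on a part of each transcript, and which copy a read came from is uncertain. In addition 401 of the 817 exon bases of *Bcl2a1b* overlap *Gm29094* on the same strand.

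The promoters of *Bcl2a1b* and *Bcl2a1d* are printed because these genes were low together in the DN libraries. The windows are chr9:89199023-89199322 on the plus strand and chr9:88731801-88732100 on the minus strand (RefSeq, GRCm38.p6), 5′ to 3′, and capitals mark the PU.1 core GAGGAAGT and TTCCCA, which is the RBPJ site TGGGAA read on the other strand.

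Bcl2a1b promoter: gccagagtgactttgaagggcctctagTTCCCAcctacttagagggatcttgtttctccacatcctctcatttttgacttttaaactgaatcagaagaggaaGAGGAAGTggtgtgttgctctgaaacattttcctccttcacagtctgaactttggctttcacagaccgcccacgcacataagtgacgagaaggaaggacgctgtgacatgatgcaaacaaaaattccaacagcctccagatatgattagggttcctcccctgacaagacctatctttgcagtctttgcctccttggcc

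Bcl2a1d promoter: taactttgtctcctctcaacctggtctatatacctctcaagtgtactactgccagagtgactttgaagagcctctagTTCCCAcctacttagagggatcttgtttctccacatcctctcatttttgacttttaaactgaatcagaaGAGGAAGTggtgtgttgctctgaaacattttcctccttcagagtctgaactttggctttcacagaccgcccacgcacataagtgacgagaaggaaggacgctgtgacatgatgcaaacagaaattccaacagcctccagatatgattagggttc

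Over 250 bases aligned without gaps 247 (98.8%) are identical. Bases present in only 1 of the windows are not counted, such as the extra gaggaa of *Bcl2a1b* next to its PU.1 core. The ratio of observed to expected CpG is 0.25 in *Bcl2a1b* and 0.27 in *Bcl2a1d*, at the percentiles 35.4 and 38.9, against 1.02 in *Bcl2* and in *Mcl1*. The other members searched ranged from 0.06 to 1.07, both of them windows of *Bcl2l1*. The PU.1 core was in the windows of all 4 *Bcl2a1* copies and of *Bak1*, and in 3.2% of the 32851 windows. The RBPJ letters were in *Bcl2a1a*, *Bcl2a1b*, *Bcl2a1d* and *Bax*, and in 25.6% of windows, the STAT letters were in none of the member windows searched and in 8.3% of windows, and the NF-kappaB consensus was in 1 window each of *Bcl2l1* and *Bbc3* and in 8.46% of windows. A match is a description of the letters and not a bound site, and the 4 copies share their sequence, so they do not count as separate occurrences. *Pmaip1* had no window among those searched.

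The macrophage marker *Msr1* was at 514, 124, 224 and 103 CPM in IgG D1, D2, R1 and R2, and the 6 macrophage markers together at 12965, 11913, 16445 and 7627 CPM. *Bcl2a1b* and *Msr1* were highest in D1, while the sum was highest in R1. *Msr1* had 0 counts in DN1 and 0 or 1 count in the DN2 libraries. *Bcl2l1* was highest in IgG D1 and R1. The neutrophil marker *S100a8* was at 6211, 12006, 7212 and 3987 CPM in the 4 IgG libraries in that order, at 516 and 13.6 CPM in DN1, and at 0 to 0.107 CPM in the DN2 libraries. The part of other cell types in the IgG values of the members was not tested.

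**Figure D1:**
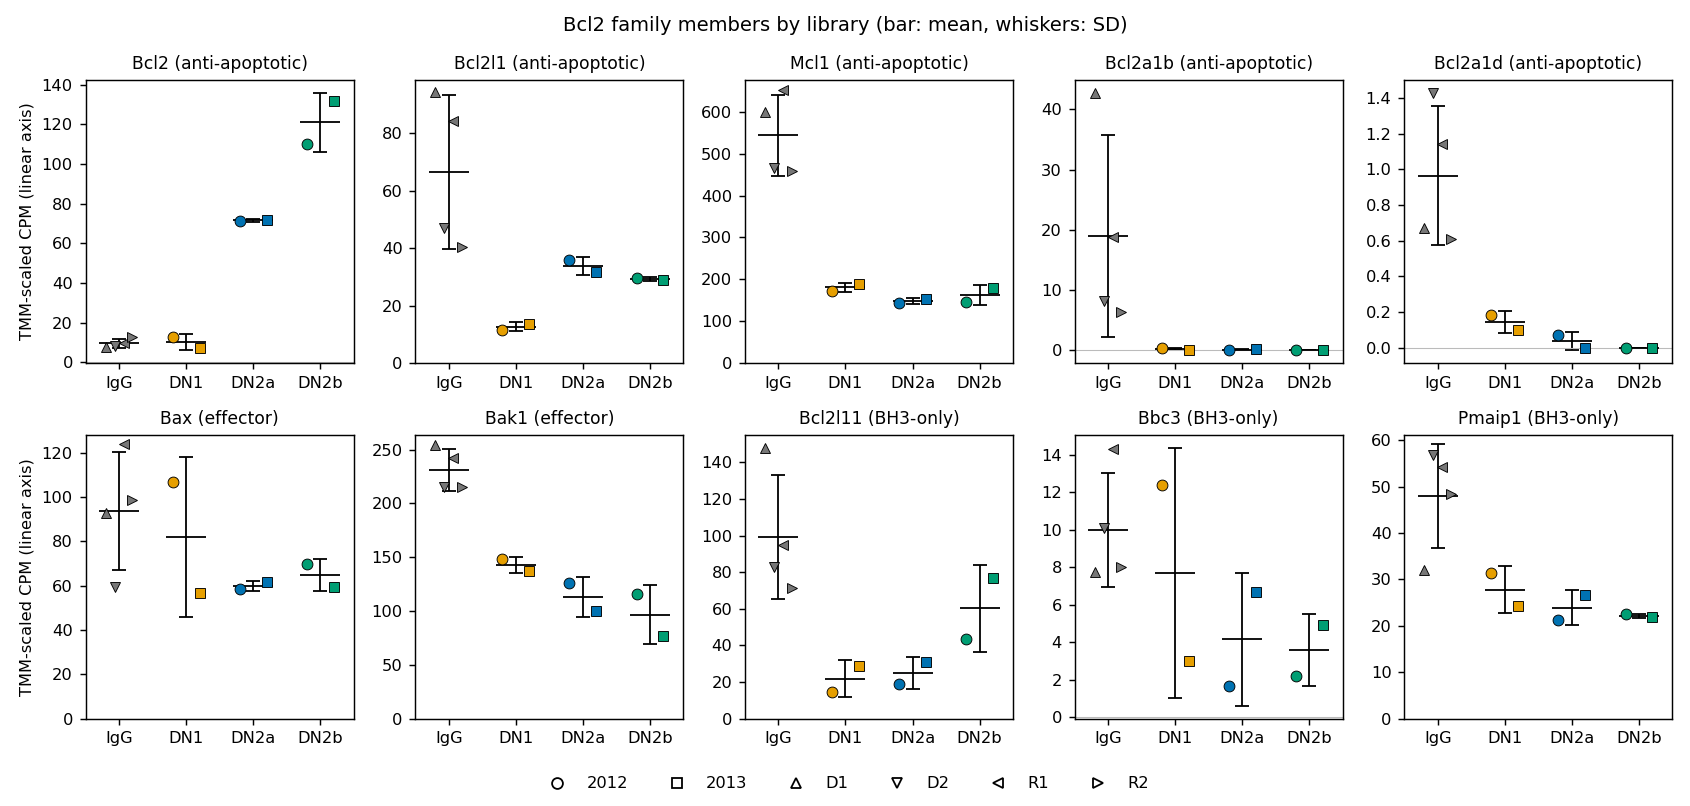
TMM-scaled CPM (linear axes) of the 10 members in the 10 libraries, grouped as IgG, DN1, DN2a and DN2b; each symbol is a library, the bar is the group mean and the whiskers the SD (n = 4 for IgG and 2 for each DN stage). *Bcl2* sits at 7.22 to 12.9 CPM in IgG and DN1 and at 71.1 to 132 CPM in DN2, while the other anti-apoptotic members are highest in IgG.

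To compare levels between paralogs, each CPM was divided by the number of 36-base windows, in kb, that the gene's transcripts share with no other locus. On that scale *Bcl2* and *Bcl2l1* changed places. *Bcl2* was at 1.06 ± 0.26 CPM per kb in IgG (SD, n = 4), 1.11 ± 0.443 in DN1 (n = 2, as for each stage), 7.89 ± 0.0609 in DN2a and 13.3 ± 1.66 in DN2b. *Bcl2l1* was at 14.2 ± 5.72, 2.71 ± 0.312, 7.22 ± 0.662 and 6.25 ± 0.131 CPM per kb in the same order of groups. *Bcl2l1* was thus the more abundant in IgG and DN1, the levels were alike in DN2a, and *Bcl2* was the more abundant in DN2b.

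Within a library the ratio of 2 genes does not depend on the scaling of the library. The ratio of *Bcl2* to *Bcl2l1* per length was 0.0433, 0.0876, 0.0584 and 0.166 in IgG (D1, D2, R1 and R2), 0.572 and 0.273 in DN1 (2012 and 2013), 1.02 and 1.17 in DN2a, reaching 1.92 and 2.36 in DN2b. The 4 groups did not overlap, and the ratio passed 1 in DN2a in both years, the DN2a library of 2012 falling to 0.989 when annotated exon length was used in place of windows. No test was made of the ratios, because they are built from the values tested above.

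*Mcl1* remained far above both. The ratio of *Bcl2* to *Mcl1* was 0.00496 to 0.0106 in IgG, rising to 0.028 and 0.0145 in DN1, to 0.187 and 0.176 in DN2a and then to 0.284 and 0.276 in DN2b. The ratio of *Bcl2l1* to *Mcl1* was 0.0638 to 0.114 in IgG, 0.0489 and 0.053 in DN1, then 0.183 and 0.15 in DN2a, and finally 0.148 and 0.117 in DN2b. For *Bcl2* the order was IgG, DN1, DN2a, DN2b without overlap, whereas for *Bcl2l1* DN1 was lowest, DN2a was highest, and the DN2b library of 2013 lay close to the top of the IgG range.

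**Figure D2:**
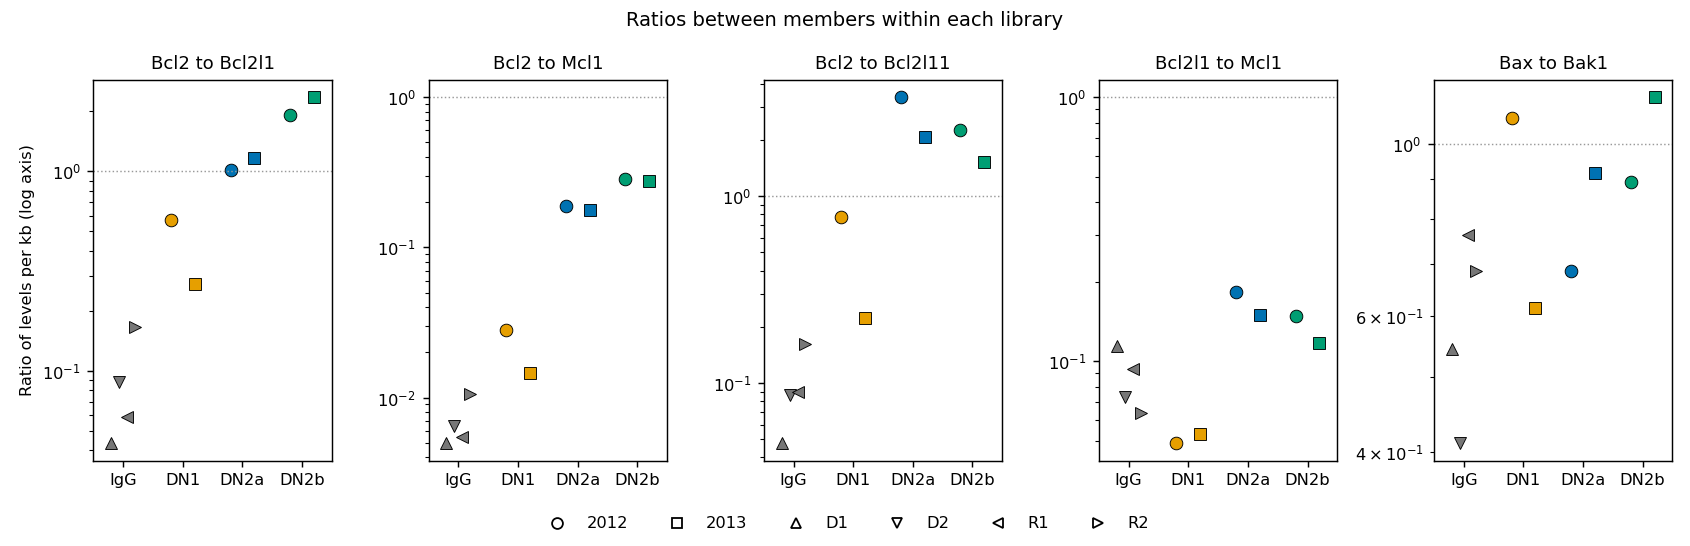
Ratio of levels per kb of uniquely assignable windows for 5 pairs of members (log axes), by group; each symbol is a library and the dotted line marks a ratio of 1. *Bcl2* to *Bcl2l1* lies between 0.0433 and 0.572 in IgG and DN1 and between 1.02 and 2.36 in DN2.

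The summed level of the 5 anti-apoptotic members was 175 to 374 CPM per kb in IgG and 57.6 to 73.3 CPM per kb in the 6 DN libraries, with 57.6 to 60.0 in DN1, 58.2 to 60.1 in DN2a and 61.4 to 73.3 in DN2b. The DN stages thus had similar sums with a different make-up. *Mcl1* made up 92.3 and 88.5% of it in DN1 and 69.8 to 75.1% in DN2. The share of *Bcl2* was 0.233 to 0.814% in IgG, 1.33 and 2.47% in DN1, 13.2 and 13.5% in DN2a and 19.8% in both DN2b libraries. The share of *Bcl2l1* was 4.9 to 6.09% in IgG, 4.32 and 4.88% in DN1, 11.2 and 13.2% in DN2a, then 8.4 and 10.3% in DN2b.

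In IgG the remainder was *Bcl2a1b*, at 14.3 to 45.6% of the sum, and *Bcl2a1d*, at 1.62 to 6.65%. These shares depend on the length used: with annotated exon length *Bcl2a1b* took 5.04 to 21% and *Bcl2a1d* 0.311 to 1.04% in IgG, and the share of *Mcl1* there went from 47.1 to 76.9% to 70.1 to 87.8%. In the DN libraries *Bcl2a1b* and *Bcl2a1d* together rest on 0 to 12 counts, so their shares there carry little precision.

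**Figure D3:**
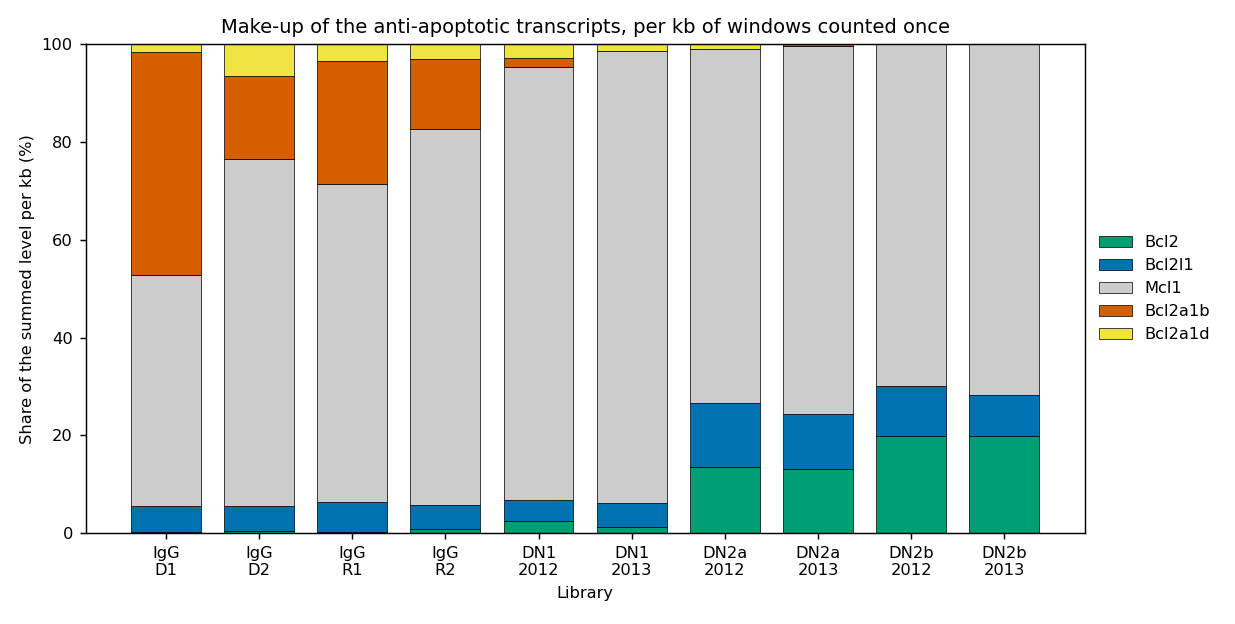
Share (%) of each anti-apoptotic member in their summed level per kb of uniquely assignable windows, one bar for each of the 10 libraries. *Bcl2a1b* takes 14.3 to 45.6% in IgG and at most 1.8% in the DN libraries, and *Bcl2* takes 13.2 to 19.8% in DN2.

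*Bak1* was at 254, 215, 242 and 215 CPM in IgG (D1, D2, R1 and R2), at 148 and 137 CPM in DN1, at 126 and 99.7 CPM in DN2a and at 116 and 77.2 CPM in DN2b. Every DN library was below every IgG library. It was lower than in IgG by a log2FC of -1.03 ± 0.23 in DN2a (adjusted p = 0.00668) and -1.26 ± 0.24 in DN2b (adjusted p = 0.0031). The DN2a call was lost without the DN2a library of 2013 (adjusted p = 0.0771, range over the alternatives 1.87e-05 to 0.0771). In DN1 the log2FC of -0.70 ± 0.23 passed narrowly (adjusted p = 0.0442) and was lost when any of 7 libraries was left out, namely either DN1 library, either DN2a library or IgG D1, R1 or R2, and in 6 of 7 other alternatives, with adjusted p from 0.00534 to 0.186. Of the 2407 exon bases of *Bak1* (chr17:27019810-27029009, minus strand), 614 overlap the antisense gene *Ggnbp1*.

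*Bax* did not pass the test in any of the 6 comparisons. It was at 92.6, 59.2, 124 and 98.9 CPM in IgG, at 107 and 56.6 CPM in DN1 (2012 and 2013), at 58.3 and 61.5 CPM in DN2a and at 69.8 and 59.6 CPM in DN2b. The largest log2FC in size was -0.65 ± 0.34 for DN2a over IgG (adjusted p = 0.142), which passed without IgG D2 (adjusted p = 0.0455, range over the alternatives 0.0455 to 0.434), and groups overlapped in each comparison. The ratio of *Bax* to *Bak1* per length was 0.41 to 0.762 in IgG, 1.08 and 0.613 in DN1, 0.685 and 0.917 in DN2a, with 0.893 and 1.15 in DN2b, so that DN2b was above IgG in both libraries. *Bax* is at chr7:45461697-45466898 on the minus strand.

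*Bcl2l11*, which encodes BIM, was at 148, 83.0, 94.7 and 71.2 CPM in IgG (D1, D2, R1 and R2), at 14.8 and 29.0 CPM in DN1, at 18.7 and 31.0 CPM in DN2a and at 43.6 and 77.0 CPM in DN2b. DN1 and DN2a were below IgG and overlapped each other, and DN2b lay above both with its library of 2013 inside the IgG range. In each stage the library of 2013 was the higher. *Bcl2l11* was 4.53-fold lower in DN1 than in IgG (log2FC -2.18 ± 0.45, adjusted p = 0.00731) and 4-fold lower in DN2a (-2.0 ± 0.45, adjusted p = 0.00643), and the DN2a call was lost without the DN2a library of 2012 (adjusted p = 0.0763, range over the alternatives 3.06e-05 to 0.0763). In DN2b it was -0.72 ± 0.42 (adjusted p = 0.186).

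From DN2a to DN2b the log2FC of *Bcl2l11* was 1.28 ± 0.47 (unadjusted p = 0.0237, adjusted p = 1) and from DN1 to DN2b it was 1.46 ± 0.48 (unadjusted p = 0.0128, adjusted p = 0.191). The DN2b over DN1 difference passed when the year was a replicate block (adjusted p = 0.0343, range over the alternatives 0.0343 to 0.818). The ratio of *Bcl2* to *Bcl2l11* per length was 0.0476 to 0.162 in IgG, 0.776 and 0.223 in DN1, 3.39 and 2.07 in DN2a, with 2.26 and 1.52 in DN2b. In both years this ratio was highest in DN2a and lower in DN2b, a different course from the ratios of *Bcl2* to *Bcl2l1* and to *Mcl1*. *Bcl2l11* is at chr2:128126038-128162547 on the plus strand.

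*Pmaip1*, encoding NOXA, was at 32.0, 56.8, 54.2 and 48.4 CPM in IgG, at 31.4 and 24.2 CPM in DN1, at 21.2 and 26.6 CPM in DN2a and at 22.5 and 21.8 CPM in DN2b. All DN libraries were below all IgG libraries, with DN1 2012 next to IgG D1. It was lower than in IgG by a log2FC of -1.0 ± 0.28 in DN2a (adjusted p = 0.0177) and -1.11 ± 0.28 in DN2b (adjusted p = 0.0129), and by -0.78 ± 0.28 in DN1 (adjusted p = 0.0581). The DN1 difference passed with DESeq2 (0.0201), with IgG R1 and R2 alone (0.0336) and without IgG D1 (0.0215, range over the alternatives 0.0201 to 0.277). The DN2a call was lost without either DN2a library (adjusted p = 0.144 and 0.0598) and with IgG D1 and D2 alone (0.0755, range over the alternatives 0.00183 to 0.144). The DN2b call was lost without either DN2b library (0.0776 and 0.0728) and with IgG D1 and D2 alone (0.0643, range 8.15e-04 to 0.0776).

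*Bbc3*, encoding PUMA, was low throughout and differed between years. It was at 7.73, 10.1, 14.3 and 8.0 CPM in IgG, at 12.4 and 2.99 CPM in DN1 (2012 and 2013), at 1.65 and 6.68 CPM in DN2a and at 2.2 and 4.93 CPM in DN2b. The DN1 library of 2012 lay inside the IgG range and the other 5 DN libraries below it. *Bbc3* passed the test in no comparison (log2FC over IgG -0.38 ± 0.70, -1.28 ± 0.74 and -1.50 ± 0.75, adjusted p = 0.709, 0.179 and 0.132). With a library left out the log2FC ran from -1.75 to 0.31 in DN1, from -2.60 to -0.58 in DN2a and from -2.18 to -1.02 in DN2b. With SEs of 0.70 to 0.81, changes of this size were not detectable here. The gene is at chr7:16308393-16318205 on the plus strand.

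Counting over the members, 5 of 10 were called in DN1 over IgG, all lower (*Bcl2l1*, *Mcl1*, *Bcl2a1b*, *Bak1* and *Bcl2l11*). Of all genes tested, 31.4% were called there, 14.3% higher and 17.0% lower. In DN2a over IgG 7 were called, *Bcl2* higher and *Mcl1*, *Bcl2a1b*, *Bcl2a1d*, *Bak1*, *Bcl2l11* and *Pmaip1* lower, beside 45.5% of all genes (21.2% higher, 24.3% lower). In DN2b over IgG 7 were called, *Bcl2* higher and *Bcl2l1*, *Mcl1*, *Bcl2a1b*, *Bcl2a1d*, *Bak1* and *Pmaip1* lower, beside 42.5% of all genes (19.9% higher, 22.5% lower). A call against IgG was thus common among all genes. Without *Bcl2a1b* and *Bcl2a1d*, which passed the filter only through IgG, 4, 5 and 5 of 8 members were called. Without the DN2a library of 2013 the count in DN2a fell to 4, and without the DN2b library of 2012 that in DN2b fell to 4.

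The median log2FC of the members was -1.19 in DN1, -1.16 in DN2a and -1.22 in DN2b over IgG, where the medians over all genes tested were 0.01, -0.048 and -0.047, and -0.74, -1.02 and -1.15 over the 8 members without *Bcl2a1b* and *Bcl2a1d*. In each of the 3 comparisons 9 of 10 members were below 0, the exception being *Bcl2*. *Bcl2a1b* and *Bcl2a1d* had to be below 0, because they passed the filter only through IgG. Of 40 further apoptosis genes tested, 24, 26 and 25 were below 0 in DN1, DN2a and DN2b over IgG. These comparisons share the IgG libraries. Scaling by library size alone moved the median of all genes in DN1 over IgG by 0.26 and the calls there from 1753 higher and 2081 lower to 2585 higher and 1627 lower, and 4 members were then called, *Bak1* no longer among them.

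Between DN stages the background was small. In DN2a over DN1 1 member, *Bcl2*, was called, beside 0.401% of all genes (0.196% higher, 0.205% lower). In DN2b over DN1 *Bcl2* was again the member called (log2FC 3.58 ± 0.37), beside 1.91% of all genes (1.01% higher, 0.892% lower), and this call held under every alternative run, with adjusted p of at most 0.0343. In DN2b over DN2a edgeR called no member and 0% of all genes (0% higher, 0% lower), while 2 members and 335 genes had an unadjusted p under 0.05. DESeq2 called 0 members and 29 genes there. The split of all calls moved with the scaling: 24 higher and 25 lower in DN2a over DN1 became 17 and 26 by library size and 125 and 349 with DESeq2, and 124 higher and 109 lower in DN2b over DN1 became 104 and 137 by library size and 339 and 483 with DESeq2. Library size scaling moved the median of all genes by -0.20 and -0.19 in these comparisons, while *Bcl2* stayed higher in DN2a and DN2b than in DN1 under each scaling.

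**Figure D4:**
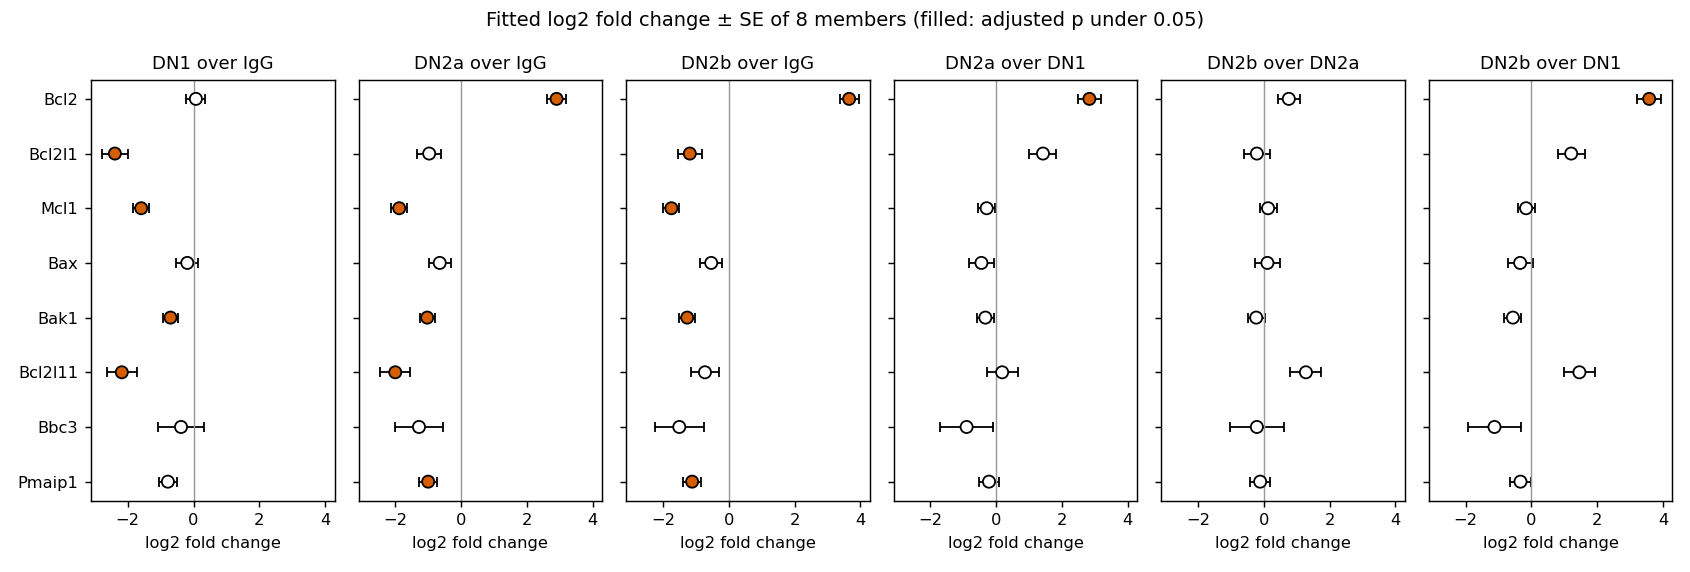
Fitted log2 fold change with SE for 8 members in the 6 comparisons; filled points have an adjusted p under 0.05. *Bcl2a1b* and *Bcl2a1d* are left out because their fitted values depend on the prior count, and *Bcl2* stands alone to the right of 0 in DN2a and DN2b over IgG.

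A list of 49 further genes of the apoptosis pathway was also followed, of which 40 passed the filter on low counts. Over IgG, 15 were called in DN1 (5 higher, 10 lower), 20 in DN2a (8 higher, 12 lower) and 20 in DN2b (9 higher, 11 lower), or 37.5, 50 and 50% of those tested beside the 31.4, 45.5 and 42.5% of all genes given above. Their median log2FC was -0.11, -0.34 and -0.35. These shares were close to those of all genes. Leaving out a library gave 8 to 17, 10 to 21 and 11 to 23 calls, with 8 and 9 without the DN1 libraries of 2012 and 2013, 10 and 13 without the DN2a libraries, and 11 without either DN2b library.

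*Bcl2l14*, a distant member of the family, had the largest rise of the list over IgG. It was at 0.056, 1.8, 0.117 and 0.671 CPM in IgG (D1, D2, R1 and R2), at 18.9 and 33.6 CPM in DN1, at 63.1 and 40.4 CPM in DN2a and at 83.9 and 42.2 CPM in DN2b. Its log2FC was 5.32 ± 0.88 in DN1 (adjusted p = 0.00283), 6.30 ± 0.90 in DN2a (adjusted p = 8.84e-04) and 6.58 ± 0.91 in DN2b (adjusted p = 7.84e-04). All DN libraries were above IgG. Of the IgG libraries only D2 reached 1 CPM, so the gene passed the filter only through the DN libraries, where it is high. The size rests in part on IgG D2, the highest control, without which the log2FC was 6.40, 7.39 and 7.67. In DN1 the other genes were *Trp53*, which encodes p53 (1.34 ± 0.21, adjusted p = 0.00211), and *Bcl2l12* (1.22 ± 0.30, adjusted p = 0.0155), whose call was lost without the DN1 library of 2012 (0.133, range over the alternatives 0.00267 to 0.133).

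In DN2a and DN2b the rule also named *Diablo*, whose product SMAC antagonizes the inhibitors of apoptosis. It was at 28.4 to 36.2 CPM in IgG, 53.8 and 59.5 CPM in DN1, 127 and 104 CPM in DN2a and 141 and 129 CPM in DN2b, with a log2FC over IgG of 1.87 ± 0.18 (adjusted p = 1.72e-04) in DN2a and 2.09 ± 0.18 (adjusted p = 8.35e-05) in DN2b. The 4 DN2 libraries were above both DN1 libraries.

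Among the genes lower than in IgG were death receptors. *Fas* fell from 15.3 CPM in IgG to 0.328 CPM in DN1, 0.128 CPM in DN2a and 0.24 CPM in DN2b (means, adjusted p = 0.0024, 8.26e-04 and 0.00133). It was below 1 CPM in every DN library, so it passed the filter only through IgG and had to be higher there. Both DN2a libraries were at the floor of 3 counts, which gives at least a 92.5-fold lower level there. The DN1 libraries were at 0.556 and 0.0997 CPM and the DN2b libraries at 0.4 and 0.0796 CPM (2012 and 2013), so the fitted fold was 44.5 in DN1 and 60.5 in DN2b, and 27.1 and 37.5 without the library of 2013. Without the library of 2012 both stages were at the floor, which gives at least a 102-fold lower level in DN1 and at least 63.9-fold in DN2b. *Tnfrsf1a*, the receptor TNFR1, had a log2FC of -3.17 ± 0.32 in DN2a (adjusted p = 1.97e-04) and -3.68 ± 0.33 in DN2b (adjusted p = 1.05e-04), and *Tnfrsf10b*, the mouse TRAIL receptor, of -3.52 ± 0.77 (adjusted p = 0.00578) and -2.89 ± 0.74 (adjusted p = 0.0127). The *Tnfrsf10b* log2FC in DN2a was -4.23 without the DN2a library of 2013, and its call was lost in DN2a without the DN2a library of 2012 (adjusted p = 0.0661, range over the alternatives 1.51e-05 to 0.0661) and in DN2b without either DN2b library (0.0918 and 0.0526, range 4.66e-04 to 0.0918). In DN1 the genes named beside *Fas* were *Cdkn1a*, the p53 target p21 (-2.84 ± 0.42, adjusted p = 0.00174, with -3.69 without the DN1 library of 2012 and -2.30 without that of 2013), and *Bnip3*, a mitochondrial protein of hypoxia and mitophagy (-3.57 ± 1.09, adjusted p = 0.0341). *Bnip3* stood at 376 CPM in IgG D2 against 51.7 to 82.3 CPM in the other IgG libraries, and without IgG D2 its log2FC was -2.47 ± 0.74 (adjusted p = 0.0333), 5.53-fold. Its call was lost without either DN1 library (0.155 and 0.128, range over the alternatives 1.29e-04 to 0.155). Of the 6 tested genes of the death receptor pathway 3, 5 and 5 were called in DN1, DN2a and DN2b over IgG, 3, 4 and 4 of them lower. Over all genes tested 31.4, 45.5 and 42.5% were called and 17.0, 24.3 and 22.5% were called lower. *Fas* is among the lower calls in each stage and *Tnfrsf10b* in DN2a and DN2b. Both passed the filter only through IgG, as *Bcl2a1b* and *Bcl2a1d* did, so these lower calls were fixed in advance and add no support.

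By role, the other BH3-only genes gave 1 call of 3 tested in each comparison over IgG, all lower (*Bmf* in DN1 and DN2a and *Bid* in DN2b). The *Bmf* call was lost in DN1 without the DN1 library of 2012 (adjusted p = 0.123, range over the alternatives 4.24e-04 to 0.123), and in DN2a without either DN2a library or any of IgG D2, R1 and R2 (adjusted p from 0.0543 to 0.262, range 0.0071 to 0.262). A group of 11 genes held those of the apoptosome, the caspases and other mitochondrial death proteins such as that of *Diablo*. Of these 11 genes 4, 7 and 8 were called in DN1, DN2a and DN2b, with 2, 4 and 5 of them higher. Over all genes 31.4, 45.5 and 42.5% were called, so that 1 of 3 and 4 of 11 lay near that share. The 7 and 8 of 11 in DN2a and DN2b lay above it. In the apoptosome *Apaf1* and *Casp9*, which form it with cytochrome c, were lower in each, while *Cycs*, which encodes cytochrome c, was above every IgG library in the 3 stages and was called higher in DN2a (0.84 ± 0.25, adjusted p = 0.0228). The *Apaf1* call was lost without the DN1 library of 2012 in DN1 (adjusted p = 0.0957, range over the alternatives 3.16e-04 to 0.0957), without the DN2a library of 2013 in DN2a (0.0763, range 6.96e-05 to 0.0763) and without either DN2b library in DN2b (0.0739 and 0.131, range 0.00177 to 0.131), and the *Casp9* call in DN1 without either DN1 library (0.0645 and 0.0737, range 4.72e-04 to 0.0737). The further anti-apoptotic member *Bcl2l2* (BCL-W) was lower in DN2a (-1.08 ± 0.31, adjusted p = 0.0194) and DN2b (-1.17 ± 0.31, adjusted p = 0.016), and *Bok* was below the filter. The *Bcl2l2* call was lost in DN2a without either DN2a library (0.156 and 0.0671, range over the alternatives 0.00158 to 0.156) and in DN2b without the library of 2012 (0.133, range 0.00114 to 0.133).

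Between DN stages edgeR called 0 of 40 pathway genes in DN2a over DN1, where DESeq2 called 2, and 0 in DN2b over DN2a by either tool. In DN2b over DN1 3 were called (7.5% of those tested, beside 1.91% of all genes tested). *Cdkn1a* (2.11 ± 0.43, adjusted p = 0.0456, with 2.97 without the DN1 library of 2012 and 1.58 without that of 2013) and *Diablo* (1.25 ± 0.22, adjusted p = 0.0272) were higher. *Bid*, which links death receptors to mitochondria, was lower (-1.03 ± 0.22, adjusted p = 0.0492). *Bid* was at 56.5 and 60.5 CPM in DN1, 47.3 and 57.4 CPM in DN2a and 27.0 and 30.4 CPM in DN2b. These 3 calls were near the threshold, and leaving out any of the 10 libraries left 0 or 1 of the pathway genes called. With the year as a replicate block 1 was called and with DESeq2 5.

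*Il7r*, the receptor chain for the cytokine added to the DN2 cultures, was at 305, 40.0, 97.1 and 52.5 CPM in IgG (D1, D2, R1 and R2), at 7.93 and 21.5 CPM in DN1, at 20.5 and 12.0 CPM in DN2a and at 30.9 and 39.3 CPM in DN2b. Unlike *Bcl2*, it was highest in IgG, while for both genes the DN2b libraries were above those of DN1 and DN2a. The log2FC over IgG was -3.07 ± 0.90 in DN1 (adjusted p = 0.0288), -2.92 ± 0.89 in DN2a (0.0242) and -1.82 ± 0.83 in DN2b (0.104). It was 0.15 ± 0.89 for DN2a over DN1 (adjusted p = 0.971) and 1.26 ± 0.90 for DN2b over DN1 (adjusted p = 0.601). A link between *Il7r* and *Bcl2* was not tested.

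The genes whose log2(CPM + 0.5) over the 10 libraries was most like that of a member were ranked by Pearson r, as a description of libraries that fall into few groups. For *Bcl2* these were *Lif* (0.984), *8430426J06Rik* (0.981) and *Vat1l* (0.981), with group means of 0.118 CPM in IgG, 0.353 in DN1, 8.52 in DN2a and 14.5 in DN2b for *Lif*, a cytokine of the IL-6 family. For *Bcl2l1* they were *Trib1* (0.949), *Etv3* (0.944) and *Cndp2* (0.944), with means for *Trib1* of 26.4, 2.01, 6.08 and 9.99 CPM. For *Bcl2a1b* they were *Cbr3* (0.999), *Stac2* (0.997) and *Stx7* (0.997), the first at 10.5 CPM in IgG and 0.148, 0.0179 and 0 CPM in the DN stages. The first set shares a gain in DN2, the second a dip in DN1, and the third its highest levels in IgG.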

How the data were processed

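RNA was measured in 10 libraries prepared with a stranded total RNA kit. The authors mapped the leading 36 bases of read 1 with TopHat (mm10). Their deposited values are raw counts for each gene symbol, made with htseq-count 0.6.1p1 (intersection-strict). The annotation and strand setting are not given in the sources used here. The 5 summary lines of each table (20.5 to 41.0% of reads) were left out.

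Counts were fitted in one model of 4 groups with edgeR 4.0.16 (quasi-likelihood test, TMM, R 4.3.3), with Benjamini-Hochberg adjustment over the 12221 genes reaching 1 CPM in 2 or more libraries and a threshold of 0.05. The SE of a log2FC is its size over the square root of F. A gene at 3 counts or fewer in each library of a group was taken at that floor, the mean over its libraries, and such floors cover counting error only. Ratios used counts plus 0.5. Exons, overlaps and 36-base windows came from GENCODE vM21 and promoters from RefSeq, with Biopython 1.88.

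DN libraries of the same year were compared for pairing. DN2a and DN2b carry the same date in their labels and DN1 an earlier one, and deviations of same-year libraries correlated at 0.07 (DN1 and DN2a), 0.22 (DN1 and DN2b) and 0.40 (DN2a and DN2b) over 12221 genes. Alternatives were DESeq2 1.42.0, library size scaling, no filter, filterByExpr, the compared groups alone, the replicate block, either pair of IgG libraries (D1 with D2, R1 with R2) as the control, the removal of single libraries, a prior count of 2 and CPM with the summary lines in the total. Exon length in place of windows was added after seeing the data.

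The members, the pathway list and the rule for named genes (the 3 largest called changes in each direction for the pathway list, the 3 most alike genes for 3 members) were chosen with earlier results of these data known. *Bok*, *Bmf*, *Apaf1*, *Casp9*, *Bcl2l2*, *Bcl2a1a* and *Bcl2a1c* were named after their values were seen. A gene of the pathway list is counted but not reported here by name. Leaving out single libraries for the floor bounds and for the named pathway genes, and counting the members without *Bcl2a1b* and *Bcl2a1d*, were added after seeing the data.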

Additional observations from a re-analysis of the deposited data

Results flagged for a closer look

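Of 54 quantities examined over the 4 IgG libraries (members, ratios and pathway genes), 1 had a library that stood far from the other 3, where chance gives about 1 in 20. *Bnip3* was at 376 CPM in IgG D2 against 51.7 to 82.3 CPM in the other control libraries. None of the 10 members and none of the 5 ratios between them had such a library.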

How the results depend on the processing

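The 21 member calls kept their direction under the alternatives run, passing the threshold again in 316 of 349 refits. The calls of *Bcl2a1b* and *Bcl2a1d* over IgG are among them, and the filter fixed their direction in advance. Settings in which *Bcl2a1d* was not tested are left out of the 349. The number of members called, with a library left out, was 4 to 5 for DN1, 4 to 8 for DN2a and 4 to 7 for DN2b over IgG, 0 to 1 for DN2a over DN1, 0 for DN2b over DN2a and 1 for DN2b over DN1. For DN2a over DN1 it was 0 with library size scaling, with only those groups and with the replicate block, and for DN2b over DN1 it was 2 with the replicate block. The block changed no other member call, and the causes of these changes were not tested.

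Directions turned in 22 refits, all of members that did not pass. *Bcl2* in DN1 over IgG was -0.16 with control libraries R1 and R2 alone and -0.41 to 0.43 with a library left out. *Bax* in DN1 over IgG was 0.075 with library size scaling, 0.089 with D1 and D2 alone and -0.73 to 0.21 with a library left out. *Bcl2l11* in DN2a over DN1 was -0.0032 with library size scaling and -0.23 to 0.74 with a library left out. The other ranges with a library left out were, for DN2a over DN1, -4.75 to 2.45 (*Bcl2a1b*), -0.84 to 0.082 (*Bax*) and -2.22 to 0.46 (*Bbc3*), for DN2b over DN2a, -0.025 to 0.27 (*Mcl1*), -0.0065 to 0.22 (*Bax*), -0.55 to 0.038 (*Bak1*), -0.90 to 1.11 (*Bbc3*) and -0.26 to 0.062 (*Pmaip1*), for DN2b over DN1, -0.73 to 0.19 (*Bax*) and -1.81 to 0.25 (*Bbc3*), and for DN1 over IgG, -1.75 to 0.31 (*Bbc3*).

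Over all genes, DN2a over DN1 had 49 calls, but 474 with DESeq2, 101 without the filter, 25 with only those groups and 0 to 229 with a library left out. DN2b over DN1 had 233 calls, but 822 with DESeq2, 80 with only those groups and 51 to 383 with a library left out. DN2b over DN2a had 0, but 29 with DESeq2 and 1 without the filter. With D1 and D2 alone, DN1 over IgG had 2329 calls and DN2b over IgG 3264, in place of 3834 and 5190, and leaving out a library gave 1867 to 4163 for DN1, 2686 to 6016 for DN2a and 2683 to 5674 for DN2b over IgG.

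Of 100 member CPM values, 13 moved by more than the SD of their group without TMM (8 higher, 5 lower), and 52 did with the summary lines in the total, all lower. With 2 libraries per DN stage, SEs of 0.26 to 0.81 between DN stages limit what could be detected for the members other than the *Bcl2a1* genes.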
